A study of Rattus norvegicus with 4 samples.

Results

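Collagen VI is built from 3 chains encoded by *Col6a1*, *Col6a2* and *Col6a3*, and these genes were followed in rat lens capsules after extracapsular lens extraction (ECLE), an operation in which the lens is taken out of its capsule while lens epithelial cells (LECs) stay on it. The members were all probe sets, groups of probes directed at one transcript, whose single gene symbol in the platform annotation is one of these 3 genes. This gave 5 of the 31042 probe sets on the arrays, for 3 of the 14217 genes named by a single symbol, with 1 probe set for *Col6a1* and 2 each for *Col6a2* and *Col6a3*. Capsules with LECs of female albino SD rats that had ECLE at 7 weeks of age were placed on 4 Affymetrix arrays, 1 at day 0 (age 7 weeks), 2 biological replicates at 1 W (7 days after ECLE, age 8 weeks) and 1 at 2 W (14 days after ECLE, age 9 weeks). All groups, day 0 included, had the same surgery and no other agent or allele is given, and no array of an unoperated lens was analysed here. The methods describe more samples per time point than the 1, 2 and 1 arrays analysed here, and the sources used here do not give how eyes or animals were assigned to an array.

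Collagen VI is a matrix collagen that forms beaded microfilaments close to cells in many connective tissues. One α1, one α2 and one α3 chain fold together inside the cell, the trimers pair into dimers and tetramers before secretion, and the tetramers join end to end outside. The α1 and α2 chains are short and alike in build, and α3 is the long chain whose C-terminal part is cut off outside the cell as endotrophin. The lens capsule itself is a basement membrane, made mainly of collagen IV, laminin, nidogen and perlecan. Posterior capsule opacification after surgery is known for the deposition of fibrous matrix by cells on the capsule.

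The genes of the α1 and α2 chains, *Col6a1* and *Col6a2*, are neighbours on rat chromosome 20 with 0 protein-coding and 2 noncoding genes between them in the RefSeq annotation of GRCr8, while *Col6a3* is on chromosome 9. RefSeq windows of the 250 bases before the gene start were available for 2 of the 3 genes, *Col6a1* and *Col6a3*, and both are shown. No window was at hand for *Col6a2*, which is named only. The sequences therefore give no comparison with the chain that stayed close to its day 0 level by its brightest probe set. For *Col6a3* the 148 bases ahead of the outermost annotated start are printed, since the last 102 bases of its window lie inside the annotated gene. Capitals mark the AP-1 site TGANTCA, the SMAD-binding core CAGAC and the hexamer GGAGGG, each searched on both strands. The hexamer was chosen after the sequences were seen.
*Col6a1*, GRCr8 chr20:11905440-11905689, plus strand: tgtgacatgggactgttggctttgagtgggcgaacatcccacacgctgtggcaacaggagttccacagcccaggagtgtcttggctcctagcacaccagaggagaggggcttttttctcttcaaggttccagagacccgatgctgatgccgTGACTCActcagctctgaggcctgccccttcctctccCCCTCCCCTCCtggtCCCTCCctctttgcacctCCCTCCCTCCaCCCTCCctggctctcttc
*Col6a3*, GRCr8 chr9:98887061-98887208, minus strand: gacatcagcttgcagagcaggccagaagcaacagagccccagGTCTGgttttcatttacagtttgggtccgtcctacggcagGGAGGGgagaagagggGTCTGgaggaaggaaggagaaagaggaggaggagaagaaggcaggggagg
The *Col6a1* window held 1 AP-1 site, 99 bases before the start, and 6 copies of the hexamer as CCCTCC, some of which share bases. The *Col6a3* window held no AP-1 site, 2 copies of the SMAD-binding core as GTCTG and 2 copies of the hexamer, 1 of them in the printed stretch. Neither window held the TATA box, searched as TATAAA. Of 33469 rat windows of the same length, 6.34% held the AP-1 site, 42.9% the SMAD-binding core, 33.6% the hexamer and 12.9% the TATA box. These are matches of letters and say nothing of binding in the capsule.

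The arrays differed in brightness, with a median intensity of 57.04 for day 0, 45.2 and 46.7 for the 1 W replicates and 31.9 for 2 W. Division by the mean intensity of each array preceded all ratios to day 0. The 18625 probe sets reaching the 40th percentile of mean level, called the brighter probe sets here, then had a median log2 ratio of -0.08 for 1 W and -0.26 for 2 W. The 3' to 5' ratio of the beta-actin control probe sets, which follows RNA integrity and labeling, was 2.32 for day 0, 1.89 and 1.91 for the 1 W replicates and 1.61 for 2 W. A place among the brighter probe sets does not settle the tissue label. It was held by 10 of 11 photoreceptor, 11 of 13 macrophage, 6 of 6 pigment cell and 1 of 3 red blood cell markers. On the day 0 array, lens epithelium markers summed to 227.5 and photoreceptor markers to 64.7, in multiples of the array mean. All 11 lens epithelium markers were among the brighter probe sets. Of these, 2 were higher and 5 lower than day 0 on each array, with a median log2 ratio of -0.10 and -0.54 (1 W and 2 W). The brightest by mean level, the crystallin genes *Cryab* and *Cryaa*, were the 2 that were higher, with log2 ratios between 0.35 and 0.69. Every ratio at either time has the single day 0 array as its denominator. In tissue samples of this kind, fewer cells of a type and less RNA per cell cannot be told apart.

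The brightest probe sets of *Col6a1* and *Col6a3* were higher than at day 0 on each of the 3 arrays after ECLE, as were 22.6% of all probe sets, while that of *Col6a2* stayed close to its day 0 level. The dimmer second probe sets of *Col6a2* and *Col6a3* read differently and are given further on. At 2 W *Col6a1* was 35.2-fold and *Col6a3* 22.8-fold above day 0, and the brighter probe set of *Col6a2* was at 1.08-fold. None of the 3 genes passed limma after Benjamini-Hochberg adjustment at either time. The test itself called 0.0483% of the 18625 brighter probe sets higher at 1 W and 0.0483% at 2 W, and 0.0% lower. At an unadjusted p under 0.05, *Col6a1* and *Col6a3* were higher at both times, as were 8.21% of the brighter probe sets at 1 W and 9.01% at 2 W, while *Col6a2* was on neither side and 9.66% and 21.9% were lower. Under the fold rule used in the methods, 2 of the 5 members were over 2.0-fold on each array after ECLE and 0 were under 0.5-fold, beside 4.32% and 3.63% of all 31042 probe sets. *Col6a3* is among the genes the study picked from these same arrays as increased, so its direction here is not independent evidence.

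The single *Col6a1* probe set (1371349_at), for the α1 chain, was at an intensity of 5.60 on the day 0 array. It was at 147 and 60.7 on the 1 W replicates 1 and 2 and at 133 on the 2 W array. The day 0 value stood alone at the dim end, at the 13.4th percentile of its array, and the 3 later values lay at the 72.1st, 54.8th and 77.9th percentiles. Relative to day 0 it was 29.5-fold on replicate 1, 12.6-fold on replicate 2 and 35.2-fold at 2 W. Ranked by ratio among the brighter probe sets it was 13th on replicate 1, 30th on replicate 2 and 11th at 2 W. For 1 W the mean log2 ratio was 4.27 (standard error 0.60, 95% confidence interval 2.62 to 5.92, adjusted p = 0.122 from limma). The log2 ratio at 2 W was 5.14 (standard error 0.69, 95% confidence interval 3.23 to 7.04, unadjusted p = 0.00158, adjusted p = 0.0577). The day 0 value was below the 20th percentile of its array (10.6), so the size of the fold rests on a dim value, and this probe set was tested because of its later levels. With values floored at the 20th percentile, the log2 ratios were 3.42 at 1 W and 4.28 at 2 W.

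The brighter *Col6a3* probe set (1389966_at), for the α3 chain, was at an intensity of 42.8 on the day 0 array. It was at 466 and 227 on the 1 W replicates 1 and 2 and at 659 on the 2 W array. Day 0 was again the lowest and 2 W the highest array, and the values lay at the 44.5th percentile of the array at day 0, the 90.0th and 80.1st at 1 W and the 95.4th at 2 W. Relative to day 0 it was 12.2-fold on replicate 1, 6.17-fold on replicate 2 and 22.8-fold at 2 W, which ranked 58th, 95th and 23rd among the brighter probe sets. For 1 W the mean log2 ratio was 3.12 (standard error 0.45, 95% confidence interval 1.88 to 4.36, unadjusted p = 0.00206, adjusted p = 0.125). At 2 W it was 4.51 (standard error 0.52, 95% confidence interval 3.08 to 5.94, unadjusted p = 0.000858, adjusted p = 0.0567). Unlike *Col6a1*, this probe set was above the filter level of 29.4 on the day 0 array, though below the median of that array, and no detection calls were used here.

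The brighter *Col6a2* probe set (1371369_at), for the α2 chain, was at an intensity of 118 on the day 0 array. It was at 105 and 67.1 on the 1 W replicates 1 and 2 and at 86.3 on the 2 W array. Once the arrays were scaled, it was 0.997-fold of day 0 on replicate 1, 0.663-fold on replicate 2 and 1.08-fold at 2 W, so the day 0 value lay inside the range of the later arrays. The mean log2 ratio was -0.30 at 1 W (standard error 0.33, adjusted p = 0.660 from limma) and 0.12 at 2 W (standard error 0.39, adjusted p = 0.859). The 95% confidence interval of the fold ran from 0.430 to 1.54 at 1 W and from 0.520 to 2.26 at 2 W. A change of 2.0-fold at 2 W is therefore inside the interval, while the folds measured for *Col6a1* and *Col6a3* are outside it.

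**Figure D1:**
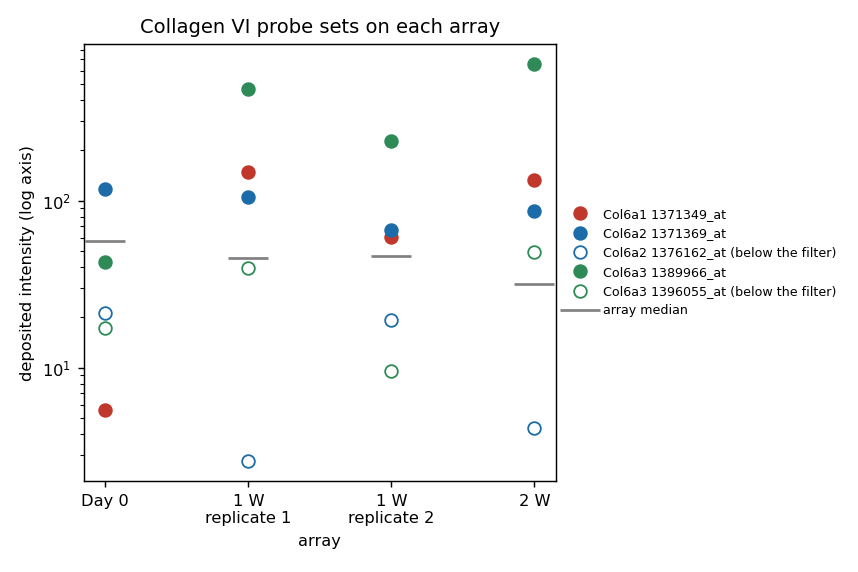
Deposited intensity (log axis) of the 5 collagen VI probe sets on each of the 4 arrays, with the array median as a grey dash and probe sets below the filter on dim values as open circles. *Col6a1* lay at 5.60 at day 0 and between 60.7 and 147 after ECLE, *Col6a3* at 42.8 and then between 227 and 659, and the brighter *Col6a2* probe set stayed between 67.1 and 118.

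The chains thus differed from each other in their ratios within each array, and dividing a whole array by one number does not alter such differences. The log2 ratio of *Col6a1* exceeded that of *Col6a2* by 4.89 on replicate 1, 4.25 on replicate 2 and 5.02 at 2 W. *Col6a2* minus *Col6a3* was -3.62, -3.22 and -4.39 on the same arrays. *Col6a1* was ahead of *Col6a3* by 1.27, 1.03 and 0.63. Both differences with *Col6a1* rest on its dim day 0 value. With values floored at the 20th percentile, *Col6a1* exceeded *Col6a2* by 4.04, 3.40 and 4.17, and *Col6a1* minus *Col6a3* became 0.42, 0.18 and -0.23, so which of these chains had the larger ratio at 2 W turned with the floor. These are differences between changes. Since probes differ in brightness for the same amount of RNA, the intensities give no ratio of α1 to α2 to α3 transcripts at any time.

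**Figure D2:**
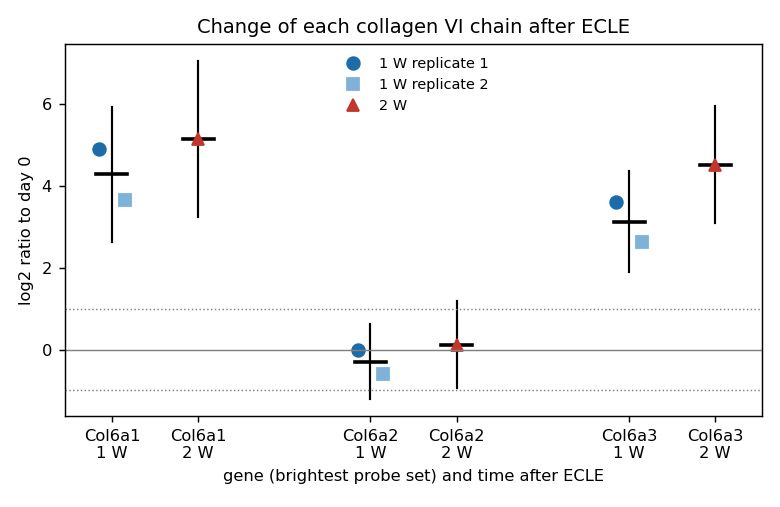
Log2 ratio to day 0 (vertical axis) of the brightest probe set of each collagen VI chain at 1 W and 2 W, with points for single arrays, a bar for the group value, a line for its 95% confidence interval from limma and dotted lines at 2.0-fold and 0.5-fold. *Col6a1* and *Col6a3* lay above the upper dotted line on all 3 arrays and *Col6a2* between the dotted lines.

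Between the first and the second week the levels were compared directly. The log2 difference of 2 W minus 1 W was 1.39 for *Col6a3* (standard error 0.45, 95% confidence interval 0.15 to 2.63, unadjusted p = 0.0354, adjusted p = 0.204 from limma), a 2.62-fold higher value at 2 W. It was 0.87 for *Col6a1* (95% confidence interval -0.78 to 2.52, adjusted p = 0.444) and 0.42 for *Col6a2* (95% confidence interval -0.50 to 1.33, adjusted p = 0.503). All 3 brightest probe sets were higher at 2 W than on both 1 W arrays after scaling, as were 25.0% of the brighter probe sets. No probe set was called in this comparison (0.0% in either direction), although at an unadjusted p under 0.05 there were 5.5% higher and 16.4% lower.

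The 2 replicates at 1 W differed in the same direction for the brightest probe set of every chain. The log2 value of replicate 1 was above that of replicate 2 by 1.23 for *Col6a1*, 0.98 for *Col6a3* and 0.59 for *Col6a2*. Replicate 1 was the higher one for 46.0% of the brighter probe sets. A gap of more than 2-fold in this direction, as for *Col6a1*, was seen in 1.69% of the brighter probe sets. These arrays give the only replicate spread here, and limma shrank it for each probe set toward a prior from all the brighter probe sets. For *Col6a1* the 2 replicates had an SD of 0.87 on the log2 scale. With each array divided by its median in place of its mean, *Col6a1* and *Col6a3* passed at both times (adjusted p = 0.0142 and 0.0144 at 1 W, 0.00922 and 0.00785 at 2 W), in a setting that called 1.4% of the brighter probe sets higher at 1 W and 5.09% at 2 W. With division by the 75th percentile, or with no scaling, both chains passed at 2 W and neither at 1 W, where 1.48% and 1.85% of the brighter probe sets were called higher at 2 W.

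The second probe sets of *Col6a2* and *Col6a3* were dim and differed from the brighter ones. The second *Col6a2* probe set (1376162_at) went from 21.1 (day 0) to 2.74 and 19.3 (1 W, replicates 1 and 2) and 4.34 (2 W). Its ratios of 0.146, 1.06 and 0.305 put replicate 2 level with day 0 and the other arrays below it. The second *Col6a3* probe set (1396055_at) went from 17.4 (day 0) to 39.4 and 9.53 (1 W) and 49.1 (2 W). Its ratios were 2.55, 0.639 and 4.19, so replicate 1 and 2 W were above day 0 and replicate 2 was below it. Both lay under the filter and were not tested. At 2 W the log2 ratio of the second probe set was below that of the brighter one by -1.83 for *Col6a2* and -2.44 for *Col6a3*. Among 1017 genes with a first probe set above and a second below the filter, the median absolute difference at 2 W was 0.97, and 24.0% differed by at least as much as *Col6a2* and 14.5% by as much as *Col6a3*.

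The chains related to α3, which are thought to take its place in the trimer, did not reach the filter. *Col6a5* went from 5.73 (day 0) to 20.4 and 33.9 (1 W) and 3.85 (2 W). *Col6a6* went from 65.6 (day 0) to 18.4 and 3.54 (1 W) and 14.9 (2 W), under 0.5-fold on each array. *Col6a6* was above the array median at day 0, but the filter is on the mean of all arrays, so neither gene was tested.

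Cell surface receptors of collagen VI lay on both sides of day 0. Of 8 measured receptor genes, none met either fold rule on each array (0 over 2.0-fold, 0 under 0.5-fold), beside 4.32% and 3.63% of all probe sets. By limma 0 were called. At an unadjusted p under 0.05, 1 was higher and 1 lower at 1 W, where the brighter probe sets had 8.21% and 9.66%. At 2 W, 1 was higher and 3 were lower, where the brighter probe sets had 9.01% and 21.9%. The log2 ratios of the receptor genes had a median of 0.05 for 1 W and -0.39 for 2 W. The 1 W median turned negative with unscaled values (-0.14). *Itgb1*, the shared β chain of collagen-binding integrins, went from 3215 (day 0) to 3193 and 2584 (1 W) and 2169 (2 W), with a ratio to day 0 of 0.999 at 2 W (adjusted p = 0.997 from limma). *Itgav*, an integrin chain that binds RGD motifs, had log2 ratios of -0.99 and -0.60 at 1 W and 2 W (adjusted p = 0.126 and 0.109). *Itga3*, the α3 integrin chain, had log2 ratios of -0.78 and -1.77 (adjusted p = 0.298 and 0.0752).

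Matrix proteins that bind or flank collagen VI filaments included genes far above and genes below day 0. Of 10 measured partners, 6 were over 2.0-fold and 1 was under 0.5-fold on each array, beside 4.32% and 3.63% of all probe sets. Their log2 ratios had a median of 1.59 for 1 W and 2.11 for 2 W. With unscaled values these counts were 4 and 2. *Fn1*, which encodes fibronectin, was the one partner that passed the test. It rose from an intensity of 44.5 at day 0 to 979 and 915 at 1 W and 469 at 2 W, log2 ratios of 4.60 and 3.96 (adjusted p = 0.0297 and 0.0493 from limma). The 2 W call was lost with quantile scaling, a floor or a 60th percentile filter (adjusted p from 0.0509 to 0.0564), and without an intensity trend it and the 1 W call were lost (adjusted p = 0.149 and 0.296). *Dcn*, for decorin, a small proteoglycan that binds collagen VI, went from 46.5 (day 0) to 4238 and 506 (1 W) and 2833 (2 W), with log2 ratios of 5.17 and 6.50 that did not pass (adjusted p = 0.197 and 0.0880). The study likewise picked *Dcn* and *Fn1* from these arrays. For *Dcn* it also reported an increase outside the arrays, by RT-qPCR in rat and mouse samples and by western blotting. *Bgn*, for the related biglycan, had log2 ratios of 3.88 and 4.32 (adjusted p = 0.147 and 0.0708). Like *Col6a1*, both proteoglycan genes read lower on replicate 2 than on replicate 1 at 1 W. *Vwa1*, *Matn2* and *Col14a1*, genes of proteins associated with collagen filaments, were over 2.0-fold on each array without passing the test, *Col14a1* from a day 0 intensity of 8.61 under the filter. On the lower side, *Hspg2*, for the basement membrane proteoglycan perlecan, had log2 ratios of -1.63 and -1.96 (adjusted p = 0.0828 and 0.0553), and *Mfap2*, for a microfibril glycoprotein, -0.90 and -1.60 (adjusted p = 0.119 and 0.0553).

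Genes needed to modify and fold collagen chains lay mostly near or below their day 0 level. Of 13 measured enzymes and chaperones, 0 were over 2.0-fold on each array, beside 4.32% of all probe sets. Below day 0 on each array were 8, beside 36.9% of all probe sets. By limma 0 were called in either direction. With an unadjusted p under 0.05, there were 4 lower genes at 1 W, 6 at 2 W and 0 higher. Among the brighter probe sets 9.66% and 21.9% were lower and 8.21% and 9.01% higher. Their log2 ratios had a median of -0.36 for 1 W and -0.51 for 2 W. The chaperone genes *Serpinh1* and *Ppib* and the prolyl hydroxylase subunit gene *P4hb*, the brightest of the list, had log2 ratios between -0.51 and 0.06. On the day 0 array they lay at the 98.8th, 98.7th and 98.3rd percentiles. *Colgalt2*, a galactosyltransferase acting on collagen hydroxylysine, was under 0.5-fold on each array, with ratios of 0.174, 0.274 and 0.122 (adjusted p = 0.130 at 1 W and 0.0577 at 2 W).

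Of 5 measured genes for enzymes listed with cleavage and turnover of collagen VI, *Mmp2* and *Mmp9*, the gelatinases, were over 2.0-fold on each array. The share over all probe sets was 4.32%. *Mmp2* went from 31.1 (day 0) to 180 and 176 (1 W) and 198 (2 W), log2 ratios of 2.71 and 3.23 (adjusted p = 0.0828 and 0.0553 from limma). *Mmp9* read 0.501 at day 0 and between 9.48 and 15.4 afterwards, all under the filter. The metalloproteinase genes *Bmp1*, *Mmp11* and *Mmp14* had log2 ratios between -0.69 and -0.12.

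**Figure D3:**
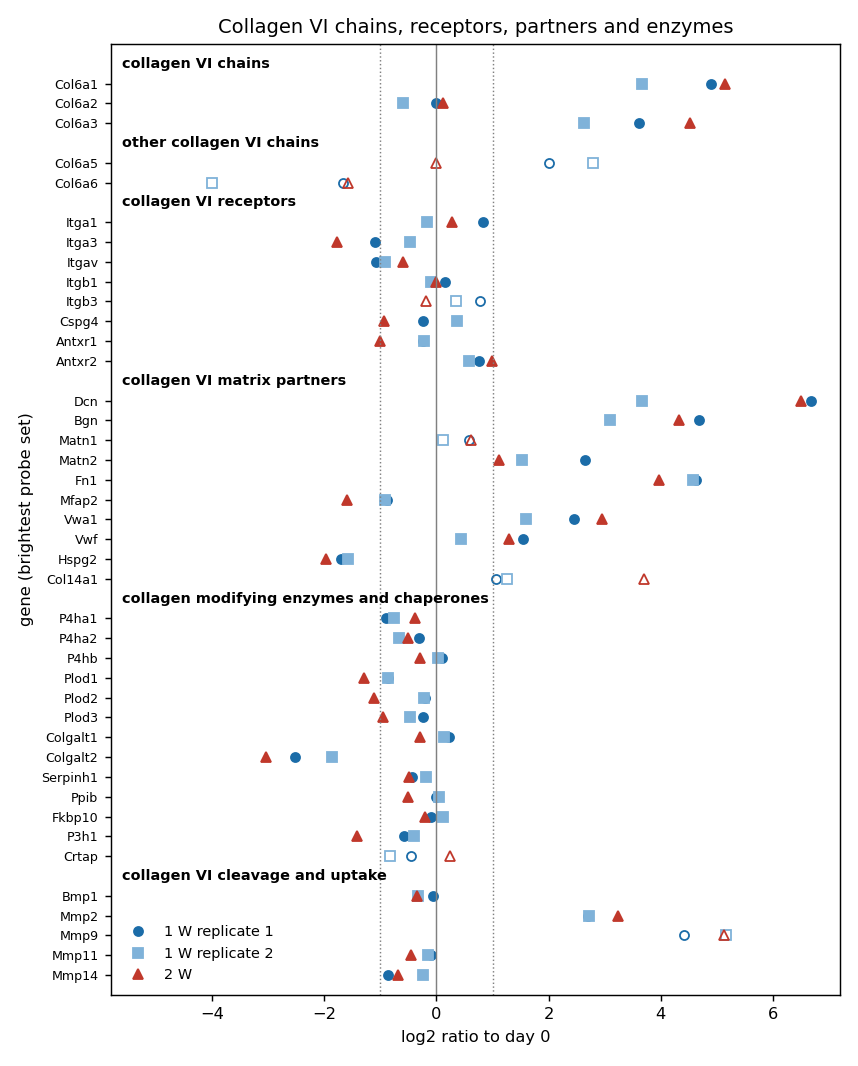
Horizontal axis, log2 ratio to day 0 for the brightest probe set of each collagen VI gene, receptor, matrix partner, modifying enzyme and cleaving enzyme on each array after ECLE, with open symbols for genes below the filter and dotted lines at 2.0-fold and 0.5-fold. *Col6a1*, *Col6a3*, *Fn1*, *Dcn*, *Bgn*, *Mmp2* and, below the filter, *Mmp9* lay far to the right. The receptors and modifying enzymes were mostly near 0. *Hspg2*, *Colgalt2* and, below the filter, *Col6a6* lay to the left.

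The other collagen genes were counted by class, with members on both sides of day 0 in each. Among 9 measured genes of fibrillar collagens, the rule of over 2.0-fold on each array was met by 3 and that of under 0.5-fold by 0. Over all probe sets these rules were met by 4.32% and 3.63%, shares that stand beside the counts of the other classes too. *Col1a1*, for the α1 chain of collagen I, rose with log2 ratios of 4.34 and 5.23 (adjusted p = 0.0300 and 0.0404, the latter 0.0560 with quantile scaling), and *Col5a2*, for a chain of collagen V, rose at 1 W with 5.13 (adjusted p = 0.0300) and had 4.61 at 2 W (adjusted p = 0.0503). Without an intensity trend neither gene passed (adjusted p = 0.296 at 1 W and 0.149 at 2 W). *Col3a1*, for collagen III, had 3.65 and 4.76 (adjusted p = 0.121 and 0.0577). *Col1a1*, *Col5a2* and *Col3a1* are also among the genes the study listed as increased on these same arrays. *Col1a2*, for the other chain of collagen I, had -0.11 and 0.37 (adjusted p = 0.822 and 0.413). By their brightest probe sets, collagen I and collagen VI thus each had 1 chain gene near its day 0 level. Beside it stood a partner more than 10 times above day 0, in *Col1a2* with *Col1a1* and in *Col6a2* with *Col6a1*. The second probe set of *Col6a2* read differently, as given above, and that of *Col1a2* is not given here. Of 7 collagen genes of basement membranes, 0 were over 2.0-fold and 2 were under 0.5-fold on each array, *Col4a1* (log2 ratios -1.11 and -1.06, adjusted p = 0.101 and 0.0577) and *Col4a2* (-1.40 and -1.40, adjusted p = 0.0828 and 0.0553). With median or 75th percentile scaling 1 of the 7 met the rule, and 3 with quantile scaling or unscaled values. *Col15a1* and *Col18a1* of this class had log2 ratios of 0.66 and 0.86 at 2 W (adjusted p = 0.546 and 0.487), and *Col11a1* of the fibrillar class -2.16 (adjusted p = 0.0558). *Col15a1* and *Col18a1* were chosen after their values were seen. Of 15 other collagen genes, *Col7a1* and *Col12a1* were over 2.0-fold on each array and *Col8a1* was under 0.5-fold, none of them called.

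The genes whose pattern over the 4 arrays was most like each chain were ranked by the root mean square difference of log2 values, after each probe set was centred on its own mean, among 10452 other genes. For *Col6a1* the nearest were *Srpx2* (0.12), *Ctsk* (0.16), *Col3a1* (0.26), *Bgn* (0.32) and *Igf1* (0.40), against a median of 2.11 over all genes searched. *Col6a3* stood 8th from *Col6a1* at 0.48 and *Col6a2* 4337th at 2.06. For *Col6a3* the nearest were *Col3a1* (0.23), *Igf1* (0.33), *Slpi* (0.37), *Clec3b* (0.38) and *Cldn11* (0.43), with a median of 1.76. *Col3a1* and *Igf1* were on both lists. For *Col6a2* the nearest were *Pmp22* (0.02), *Ess2* (0.02), *Iqcc* (0.04), *Ttll7* (0.04) and *Pdgfrb* (0.06), but its pattern is nearly flat and the median over all genes was only 0.42. *Srpx2* and *Ctsk*, at 2.58 and 4.20 on the day 0 array, were like *Col6a1* below its 20th percentile (10.6), so these distances rest in part on values not shown to be above background. With 4 arrays, likeness is a description of these arrays.

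**Figure D4:**
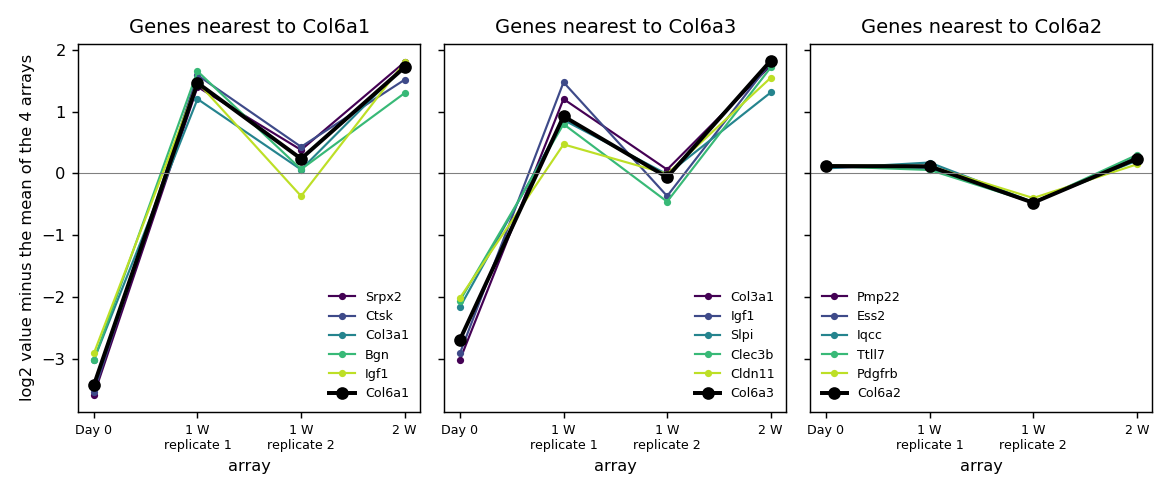
Log2 value minus the mean of the 4 arrays (vertical axis) on each array for each collagen VI chain (black) and its 5 nearest genes (colors), the lines joining arrays only to show which points belong together. The genes near *Col6a1* and *Col6a3* share a low day 0 value and a lower value on replicate 2 than on replicate 1 at 1 W, and the *Col6a2* group is nearly flat.

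Markers of other cells that a capsule sample may hold differed from day 0 beside *Col6a1* and *Col6a3*. Of 11 fibroblast markers, 3 were over 2.0-fold and 1 was under 0.5-fold on each array. Over all probe sets these rules were met by 4.32% and 3.63%, shares that stand beside the fold rule counts of the other marker lists too. The summed level of the fibroblast markers, in multiples of the array mean, went from 22.8 (day 0) to 32.4 and 40.2 (1 W) and 25.3 (2 W). *Lum*, for the proteoglycan lumican, had log2 ratios of 2.08 and 2.11 (adjusted p = 0.142 and 0.0715 from limma). *Loxl1*, also bright in this list, had 0.56 and -0.17 (adjusted p = 0.551 and 0.855 from limma). *Pdgfra*, the marker under 0.5-fold, had -1.52 and -1.81 (adjusted p = 0.156 and 0.0727 from limma). Of 10 smooth muscle and pericyte markers, 3 met the rule of over 2.0-fold on each array. Their list had a summed level of 2.27 (day 0), 15.7 and 8.52 (1 W) and 7.64 (2 W). *Tagln* of this list, an actin-binding protein gene also used for myofibroblasts, rose with log2 ratios of 5.94 and 4.75 (adjusted p = 0.0297 at 1 W, and just under the threshold at 2 W, lost there with quantile scaling, a floor or either other filter at 0.0509 to 0.0564, and at both times without an intensity trend). Of 13 macrophage markers, 11 met it (7 with unscaled values), with a summed level of 3.56 (day 0), 34.0 and 22.3 (1 W) and 16.4 (2 W). All 6 melanocyte and pigment cell markers were higher on each array (summed level 10.8, 67.3, 24.1 and 37.0), beside 22.6% of all probe sets. All 11 photoreceptor markers were lower (64.7, 6.48, 27.3 and 8.75), beside 36.9% of all probe sets. The summed smooth muscle, macrophage and pigment cell levels were, like *Col6a1* and *Col6a3*, higher on replicate 1 than on replicate 2. So were those of the lens fiber, endothelial, Schwann cell and, by little (221 against 218), lens epithelium markers. Fibroblast, photoreceptor and red blood cell levels were lower on replicate 1. Such sums lean on the brightest markers of a list. In the Schwann cell list *Pmp22* read 5237 at day 0, with *Mbp* next at 469. In the fibroblast list *Pdgfra* read 2482 at day 0, with *Loxl1* next at 1232. In the macrophage list *Gpnmb* read 3838 on replicate 1, with *Lyz2* next at 2005. Over the single fibroblast markers, the median log2 difference of replicate 1 minus replicate 2 was 0.10, against 1.84 for smooth muscle, 0.39 for macrophage and 1.75 for pigment cell markers. It was 0.81 for endothelial, 0.58 for lens fiber, 0.57 for Schwann cell and 0.12 for lens epithelium markers. For photoreceptor and red blood cell markers it was -2.18 and -0.38. In the smaller lists, 1 of 5 Schwann cell markers (*Mbp*) and 1 of 3 red blood cell markers (*Hbb*) were under 0.5-fold on each array. Over 2.0-fold on each array were 1 of 7 endothelial, 1 of 5 Schwann cell and 1 of 3 red blood cell markers, all of them below the filter. Of 10 lens fiber markers 0 met this rule, but the median of their log2 ratios went from 0.07 (1 W) to 1.40 (2 W), with a summed level of 157 (day 0), 167 and 133 (1 W) and 392 (2 W). The part of these cells in the collagen VI values was not tested.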

How the data were processed

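RNA of capsules with LECs was hybridized to 4 Affymetrix rat arrays. The authors made and deposited a linear intensity per probe set with Affymetrix Expression Console. The methods name a division of each array by control values or by its average intensity. Which of these, and whether it is already in the deposited values, is not stated, and the summary algorithm is not named in the sources used here.

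After removal of 57 control probe sets, the deposited intensity of each probe set was divided by the mean of its array and log2 was taken. The filter kept the 18625 probe sets whose mean log2 level reached the 40th percentile. These were fitted in R 4.3.3 with limma 3.58.1 as 3 groups, with moderated variances and an intensity trend, and two-sided p-values were adjusted by Benjamini-Hochberg with a threshold of 0.05. The 2 arrays at 1 W give the only residual degree of freedom (1, beside 3.12 prior degrees of freedom). Day 0 and 2 W, with a single array each, are thus taken to have the same spread. The code of the test was also run on simulated data with known changes, and the outcome is not given here. Symbols came from the platform annotation (20826 probe sets with 1 symbol, 436 with several, 9780 with none), and 20758 matched RefSeq. The probe set with the highest mean level stands for a gene, and second probe sets of members are given too.

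Named are all members, the 3 brightest genes of each list above the filter, those called or past the fold rule on each array, the 5 nearest genes of each chain, and the brightest or called markers of cell types. The members, lists and rules were chosen with earlier results of these data known. Alternatives were other scalings (median, 75th percentile, quantile, as deposited), a floor, other filters, other limma priors, all arrays after ECLE as 1 group, group means for the fold rule and leaving out a 1 W replicate. The number of arrays limits precision, and signal over background is unknown for dim probe sets. Python 3.11.15 (numpy 2.4.6, pandas 2.3.3) and matplotlib 3.10.9 for plots were used for the tables.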

Additional observations from a re-analysis of the deposited data

Results flagged for a closer look

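Among the members and the genes chosen from the receptor, partner, enzyme and collagen lists by level, call or fold rule, 3 were above day 0 on both arrays at 1 W and below it at 2 W, or the reverse. Other list genes were not searched. The brighter *Col6a2* probe set had log2 ratios of -0.01 and -0.59 at 1 W and 0.12 at 2 W (2 W minus 1 W 0.42, adjusted p = 0.503 from limma). *P4hb*, a subunit of prolyl hydroxylase, had log2 ratios of 0.10 and 0.02 at 1 W and -0.29 at 2 W (2 W minus 1 W -0.35, adjusted p = 0.216 from limma). *Col9a1*, for a chain of collagen IX, had 0.10 and 1.90 at 1 W and -0.13 at 2 W (2 W minus 1 W -1.14, adjusted p = 0.441 from limma). None of these differences between the times passed the test.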

How the results depend on the processing

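The direction of the brightest *Col6a1* and *Col6a3* probe sets was the same under every alternative run. With all arrays kept, their log2 ratios ran from 3.42 to 4.56 and 2.93 to 3.58 at 1 W and from 4.28 to 5.45 and 3.94 to 4.83 at 2 W, with adjusted p from 0.0142 to 0.296, 0.0144 to 0.306, 0.00922 to 0.149 and 0.00785 to 0.149. With median scaling they passed limma, *Col6a1* at 4.39 and 5.41 and *Col6a3* at 3.24 and 4.78 (1 W and 2 W). With 75th percentile scaling they passed at 2 W only, at 5.45 and 4.83 (adjusted p = 0.0489 and 0.0486), and so they did with unscaled values, at 4.57 and 3.94 (adjusted p = 0.0114 and 0.0103). Unscaled, the 2 W ratio of *Col6a2* reversed to -0.45 (adjusted p = 0.373), while all brighter probe sets had a median of -0.83. With group means in place of single arrays 1 member, the second *Col6a2* probe set, was under 0.5-fold. Under a floor at the 20th percentile, added after the data were seen, *Col6a1* minus *Col6a2* was 3.72 at 1 W and 4.17 at 2 W (4.57 and 5.02 without it), and *Col6a1* minus *Col6a3* was 0.30 and -0.23 (1.15 and 0.63 without it). The counts called higher at 1 W and 2 W were 9 and 9, 260 and 948 with median scaling, 9 and 276 with the 75th percentile, 8 and 0 with quantile scaling, 87 and 344 unscaled, 8 and 4 with the floor, 9 and 6 without a filter, 9 and 5 with a 60th percentile filter, and 0 and 0 without an intensity trend. Called lower at 1 W and 2 W were 146 and 683 with median scaling, 0 and 123 with the 75th percentile, and 163 and 7630 unscaled. In the other settings just listed, 0 were called lower at either time. The causes were not tested.

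Leaving out a 1 W replicate left no residual degrees of freedom and gave values without a test. The 1 W log2 ratio then ran from 3.66 to 4.88 for *Col6a1*, -0.59 to -0.01 for *Col6a2* and 2.63 to 3.61 for *Col6a3*, and 2 W minus 1 W from 0.25 to 1.48, 0.12 to 0.71 and 0.90 to 1.88. The second *Col6a2* and *Col6a3* probe sets changed sign at 1 W, from 0.09 without replicate 1 to -2.78 without replicate 2 and from -0.65 to 1.35. A 60th percentile filter gave no value for *Col6a1*, which lies below it. No paired analysis was possible. By the methods each animal was sacrificed at a single time, so arrays of different times come from different animals. Dim values, as *Col6a1* at day 0, are limited by an unknown background.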

Other observations

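A group of collagen genes had the opposite order of the replicates at 1 W, and they were picked once their values had been seen. *Col9a1*, *Col9a2* and *Col9a3*, for the chains of collagen IX, read 1049, 208 and 461 on replicate 1 and 3538, 618 and 1758 on replicate 2. *Col2a1*, for collagen II, went from 107 (day 0) to 130 and 588 (1 W) and 87.5 (2 W). Collagens II and IX are known from cartilage and from the vitreous. On the same arrays *Col6a1* and *Col6a3* read 147 and 466 on replicate 1 and 60.7 and 227 on replicate 2. None of these genes passed limma at 1 W (adjusted p from 0.122 for *Col6a1* to 0.530 for *Col9a1*).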
